A study of Mus musculus with 28 samples.

Results

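The 10 genes described here encode RNA polymerase I (Pol I) subunits, its initiation factors, and abundant nucleolar proteins of ribosome assembly: *Polr1a*, *Polr1b*, *Ubtf*, *Rrn3*, *Ncl*, *Npm1*, *Fbl*, *Nop56*, *Nop58*, and *Dkc1*. They were chosen by name and found by gene identifier among 15384 genes with RNA-seq values per library and 27179 genes of the chromatin RNA table, and all 10 were present in both. FACT is a histone chaperone made of SSRP1 and SUPT16. The comparison asked how these genes responded when FACT was depleted from mouse embryonic stem cells (mESCs).

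The cells were of the E14 line, an established mESC line grown in serum with leukaemia inhibitory factor. Both groups were transfected with lentiviral vectors, carrying either a scrambled shRNA (control, 4 libraries) or, by the methods, a combination of shRNAs against *Ssrp1* (KD, 4 libraries). In both groups puromycin at 2 μg/ml was added 48 h after transfection, and RNA was taken after a further 24 h, so the cells are a selected population and not a clone. ERCC spike-in RNA was added to all 8 libraries, and ribosomal RNA was depleted. SSRP1 and SUPT16 ChIP-seq gave 1 peak list per subunit from pooled replicates of E14 cells, and 2 libraries of chromatin RNA came from the fractionated E14 cells, lysed in the presence of α-amanitin.

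Ribosome production begins in the nucleolus, where Pol I copies the ribosomal DNA repeats into a long precursor RNA. UBF, encoded by *Ubtf*, opens and marks the active repeats, and RRN3 (TIF-IA) carries the polymerase to the promoter. The precursor is then modified by small nucleolar ribonucleoproteins: box C/D particles, built on NOP56, NOP58, and the methyltransferase fibrillarin (*Fbl*), and box H/ACA particles, built on the pseudouridine synthase dyskerin (*Dkc1*). Nucleolin (*Ncl*) and nucleophosmin (*Npm1*) are abundant nucleolar proteins that bind ribosomal RNA and assembling particles. Embryonic stem cells divide fast and keep large nucleoli.

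The reads recovered on the listed genes were 4602278 to 6680919 per control library and 9433193 to 19856032 per KD library, so that low values are less precise in control. *Ssrp1* itself had values of 260.7, 229.8, 222.6, and 225.8 in control and 24.1, 26.4, 24.9, and 28.9 in KD. Its log2 fold change was -3.15 ± 0.07 (SE), whereas *Supt16* RNA was higher in KD by 0.66 ± 0.06. The *Supt16* fold change was 0.03 under quantile scaling (adjusted p = 0.468 in limma) and 1.69 in the spike-in scaling. By mass spectrometry, the paper reports that SUPT16 protein was depleted together with SSRP1. The 9 ES cell markers tested were all present and higher in KD, with a summed value of 1640 to 1762 in control and 4707 to 5193 in KD. The fibroblast markers (6 of 8 in the table, summed value 69.0 to 91.8 in control and 22.0 to 26.1 in KD) fell for 5, and the primitive endoderm markers (6 of 8, 65.9 to 95.6 and 27.3 to 32.0) fell for all 6. The trophectoderm markers (7 of 8, 985 to 1325 and 766 to 813) fell for all 7, and of 5 neural markers tested (83.7 to 107.4 and 144.5 to 155.5) 4 fell and *Tubb3* rose. The falls depended on the scaling: in the spike-in scaling 4 fibroblast, 2 primitive endoderm, 0 trophectoderm, and 0 neural markers fell, and under quantile scaling 4, 3, 4, and 1 did. The 9 ES cell markers were higher in both. *Lum*, *Dcn*, *Foxa2*, *Afp*, *Elf5*, *Dcx*, and *Neurog2* had no value. These marker lists moved between the groups together with the genes below, and their part in the result was not tested.

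Sequences are shown first for the promoters, because they show where FACT peaks did and did not lie. RefSeq start windows (GRCm38.p6, 250 bases before the start to 50 after) were matched for 8 of the 10 genes, in 13 windows since *Ubtf* has 6, and *Npm1* and *Fbl* were not matched. Searched on both strands were the MYC E-box CACGTG, the NRF1 core GCATGCG, the SP1 GC box GGGCGG, the TATA box TATAAA, and the YY1 core AAGATGG, and none of these words contains another. Matches are in capitals, and a match on the other strand reads as the reverse complement. The promoters of *Ncl* (chr1:86359406-86359705, minus strand) and *Nop56* (chr2:130274162-130274461, plus strand) lie under peaks of both subunits. Those of *Rrn3* (chr16:13780449-13780748, plus strand) and *Dkc1* (chrX:75095604-75095903, plus strand) lie under none. A *Ubtf* window that is not shown (chr11:102317822-102318121, minus strand) has all 300 bases under peaks of both subunits.
Ncl: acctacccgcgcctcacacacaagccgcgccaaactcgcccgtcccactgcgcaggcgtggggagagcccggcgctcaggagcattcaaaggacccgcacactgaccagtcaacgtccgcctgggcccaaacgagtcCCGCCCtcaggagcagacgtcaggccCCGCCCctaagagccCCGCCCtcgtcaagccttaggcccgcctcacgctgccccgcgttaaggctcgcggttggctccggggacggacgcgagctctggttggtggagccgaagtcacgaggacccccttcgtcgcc
Nop56: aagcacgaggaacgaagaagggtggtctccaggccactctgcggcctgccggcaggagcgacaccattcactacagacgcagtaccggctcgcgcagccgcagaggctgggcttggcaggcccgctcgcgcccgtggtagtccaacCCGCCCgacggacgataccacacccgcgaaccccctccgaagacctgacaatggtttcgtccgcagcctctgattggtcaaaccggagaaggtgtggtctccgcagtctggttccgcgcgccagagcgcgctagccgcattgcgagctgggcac
Rrn3: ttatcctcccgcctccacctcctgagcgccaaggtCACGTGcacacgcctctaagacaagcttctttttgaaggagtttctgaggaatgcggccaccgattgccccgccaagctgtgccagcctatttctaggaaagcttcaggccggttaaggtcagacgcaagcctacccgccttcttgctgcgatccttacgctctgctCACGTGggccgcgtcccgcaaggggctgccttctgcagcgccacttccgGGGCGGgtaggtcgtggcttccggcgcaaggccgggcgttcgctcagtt
Dkc1: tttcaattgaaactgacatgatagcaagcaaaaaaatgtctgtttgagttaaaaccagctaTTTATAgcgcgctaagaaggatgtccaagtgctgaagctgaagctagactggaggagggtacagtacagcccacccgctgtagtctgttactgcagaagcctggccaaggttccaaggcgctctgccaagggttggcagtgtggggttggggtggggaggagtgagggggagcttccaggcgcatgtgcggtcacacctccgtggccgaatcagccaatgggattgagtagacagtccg

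The *Ncl* window held 3 GC boxes, starting at -113, -87, and -72 from the start, and its GC content was 69.3%. All 300 of its bases lay under the SSRP1 peak and 85 under the SUPT16 peak. The *Nop56* window held 1 GC box at -104, with 220 bases under an SSRP1 peak and 300 under a SUPT16 peak. The *Rrn3* window was the only one of the 13 with E-boxes, which lay at -215 and -48. The *Dkc1* window held a single TATAAA on the other strand at -189, far from the usual place of a TATA box. Over all 32851 windows of the same length, 7.15% held the E-box, 3.58% the NRF1 core, 35.7% the GC box, 13.6% the TATA box, and 6.34% the YY1 core. The median GC content over all these windows was 52.7%. A GC box stood in 10 of the 13 windows, an NRF1 core in 1, at *Ubtf*, and a YY1 core in 0. Several of the windows with a GC box belong to *Ubtf*, so this is a count of windows and not of genes. By gene, *Ncl*, *Nop56*, *Nop58*, *Polr1b*, *Rrn3*, and *Ubtf* had a GC box, and *Dkc1* and *Polr1a* had none. These letters are a description of the windows.

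In KD cells most of the 10 genes had higher values than in control under the library-size scaling, with *Npm1*, *Ubtf*, *Dkc1*, and *Rrn3* ahead. *Ncl* overlapped between the groups in that scaling, and *Polr1a* was slightly lower. Values in that scaling totalled 825584 to 909417 per control library and 1137293 to 1182584 per KD library, so it does not set equal totals. The fold changes did not keep their direction under every scaling. Quantile scaling gave *Polr1b*, *Ncl*, *Nop56*, and *Nop58* negative log2 fold changes, of which *Ncl* and *Nop58* passed an adjusted p below 0.01 in limma. Scaling each library to the same total gave *Polr1b*, *Ncl*, and *Fbl* negative ones, of which *Ncl* alone passed. The spike-in scaling and a correction for exon length turned *Polr1a* higher. At an adjusted p below 0.01 in limma, 8 of the 10 genes were higher and 1 was lower, where 35.4% of all 15384 genes were higher and 37.3% were lower. Past a log2 fold change of 1 as well, 1 gene was higher (8.07% of all genes) and 0 were lower (20.6% of all genes). All 4 KD libraries lay above all 4 control libraries in 8 genes, against 35.8% of all genes, and below them in 1, against 37.5%. The median log2 fold change was 0.53 over the 10 genes and -0.03 over all genes. Well-expressed genes as a whole also rose more often: among the 4644 genes whose control mean was at least that of *Fbl*, the lowest member, 59.5% were higher, 21.4% were lower, and the median was 0.33. In bulk RNA, fewer cells of a type and less RNA per cell cannot be told apart.

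**Figure D1:**
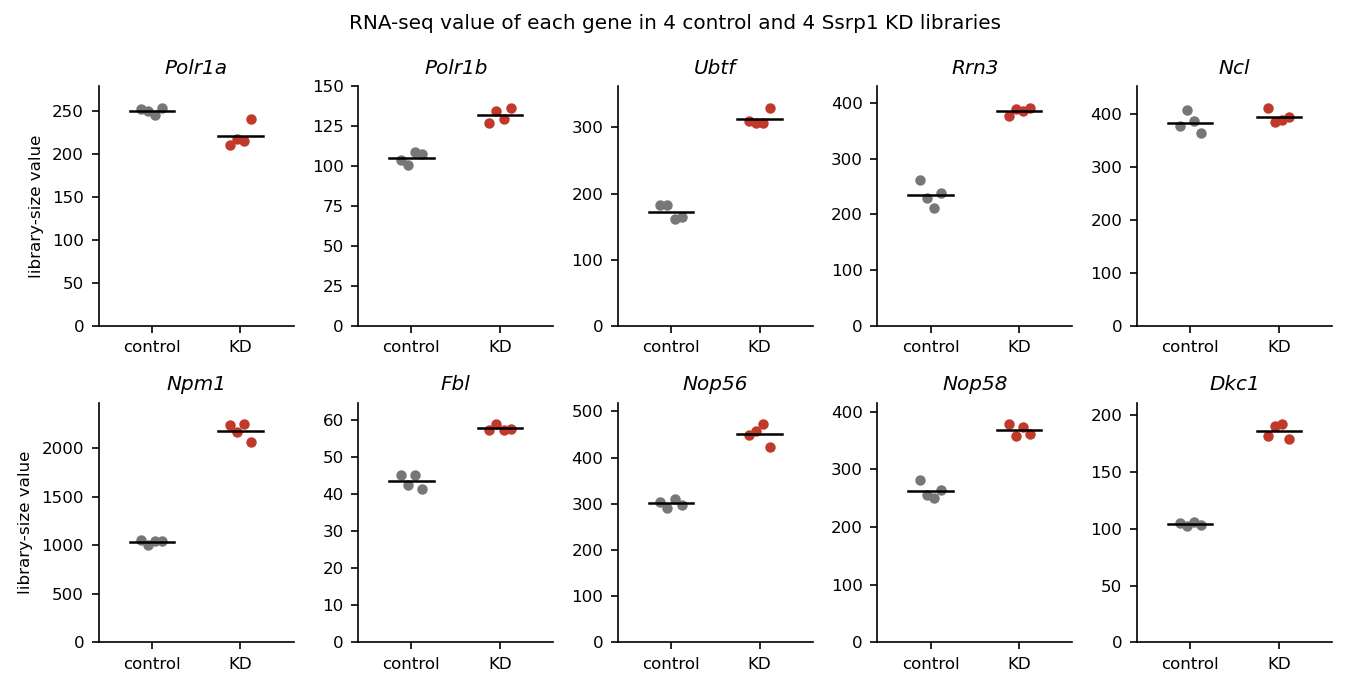
RNA-seq values of the 10 genes (library-size scaling by the authors, linear axis from 0) in 4 control (grey) and 4 KD (red) libraries, with the mean of each group as a black line. The groups separate in 9 genes and overlap in *Ncl*. *Polr1a* is the gene whose KD libraries are lower, which spike-in scaling and a length correction reverse. Quantile or equal total scaling gives *Polr1b*, *Ncl*, *Fbl*, *Nop56*, or *Nop58* a negative log2 fold change. Of these, *Ncl* in both scalings and *Nop58* under quantile scaling pass an adjusted p below 0.01 in limma.

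*Polr1a* encodes the largest Pol I subunit, which holds part of the active site, and *Polr1b* the second largest. *Polr1a* had values of 251.8, 249.2, 245.4, and 253.3 in control and 209.7, 217.0, 215.3, and 240.1 in KD. The highest KD library still lay under the lowest control library, although by less than the range within KD. Its log2 fold change was -0.18 ± 0.06 (SE, adjusted p = 0.0039), a call that was lost without control replicate 4 or without KD replicate 1, 2, or 3 (-0.18 to -0.16, adjusted p 0.0127 to 0.0248), and that turned to 0.84 in the spike-in scaling.
*Polr1b* had values of 103.7, 100.5, 109.2, and 107.9 in control and 127.2, 134.3, 129.7, and 136.6 in KD. The groups did not overlap, and the log2 fold change was 0.32 ± 0.06 (adjusted p = 9.7e-06). Within each library, *Polr1b* relative to *Polr1a* went from a log2 ratio of -1.24 ± 0.06 (SD, n = 4) to -0.74 ± 0.05 (SD, n = 4).

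*Ubtf* and *Rrn3*, the initiation factors, rose together. *Ubtf* had values of 182.9, 182.4, 160.9, and 164.7 in control and 310.3, 307.0, 306.7, and 329.7 in KD. All KD libraries lay far above control, at a log2 fold change of 0.86 ± 0.06 (adjusted p = 1.81e-13).
*Rrn3* had values of 262.6, 230.3, 211.1, and 238.7 in control and 377.2, 389.8, 386.1, and 391.3 in KD. Control libraries were more spread than KD libraries, and the log2 fold change was 0.72 ± 0.06 (adjusted p = 1.96e-11). The ratio of *Rrn3* to *Ubtf* changed by -0.14 on the log2 scale, and the libraries of the groups overlapped in it. *Ubtf* and *Rrn3* stayed higher in all scalings tried, though *Rrn3* missed the threshold under quantile scaling (0.12, adjusted p = 0.0148).

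*Npm1* and *Ncl*, the nucleolar phosphoproteins, behaved unlike each other under the library-size scaling. *Npm1* had values of 1052, 1006, 1041, and 1048 in control and 2244, 2170, 2246, and 2066 in KD. It was the most abundant of the 10 genes and the one that passed both thresholds, with a log2 fold change of 1.07 ± 0.06 (adjusted p = 1.69e-14). It fell to 0.64 with equal totals and to 0.14 under quantile scaling, and was 2.10 in the spike-in scaling. *Npm1* is known to have processed copies in the genome, and how reads shared with them were counted is not stated, so its level is uncertain.
*Ncl* had values of 377.1, 407.5, 386.2, and 364.4 in control and 411.8, 385.3, 388.9, and 394.3 in KD. The groups overlapped, and the log2 fold change was 0.04 ± 0.05 (adjusted p = 0.479). This value depended on the scaling: it was -0.59 under quantile scaling and -0.39 at equal totals (adjusted p = 4.143e-08 and 1.615e-07 in limma), and 1.07 in the spike-in scaling (adjusted p = 0.0004288). Within each library, *Npm1* relative to *Ncl* went from a log2 ratio of 1.43 ± 0.09 (SD, n = 4) to 2.46 ± 0.06 (SD, n = 4). The 2 genes differ in exon length (1718 and 8257 bp), and after the correction for exon length they stood closer, at 1.12 and 0.81.

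The 3 box C/D genes rose by similar amounts under the library-size scaling, although not under quantile or equal total scaling. *Nop56* had values of 303.6, 291.7, 310.9, and 297.3 in control and 449.7, 458.1, 472.0, and 422.7 in KD. *Nop58* had values of 282.5, 255.6, 251.1, and 264.1 in control and 378.4, 357.6, 373.6, and 361.4 in KD. *Fbl*, the lowest of the 10 genes before length is taken into account, had values of 45.1, 42.5, 45.2, and 41.3 in control and 57.2, 58.8, 57.2, and 57.5 in KD. In none of these genes did the groups overlap. The log2 fold changes were 0.58 ± 0.05 for *Nop56*, 0.48 ± 0.05 for *Nop58*, and 0.40 ± 0.07 for *Fbl*, with adjusted p of 1.88e-10, 7.48e-09, and 4.72e-06. At equal totals they stood at 0.15, 0.05, and -0.02, and under quantile scaling at -0.03, -0.11, and 0.16.

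*Dkc1*, the box H/ACA gene, had values of 105.2, 102.4, 106.2, and 103.0 in control and 181.7, 190.1, 191.8, and 178.6 in KD. The libraries within a group lay close together, and the log2 fold change was 0.83 ± 0.05 (adjusted p = 1.45e-13). It was higher under every scaling tried, at 0.41 with quantile scaling, 0.40 with equal totals, and 1.85 with spike-ins. *Dkc1* and *Nop56* overlap genes of the opposite strand at their ends, *Mpp1* and *Idh3b*, and whether counting used strand is not stated.

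**Figure D2:**
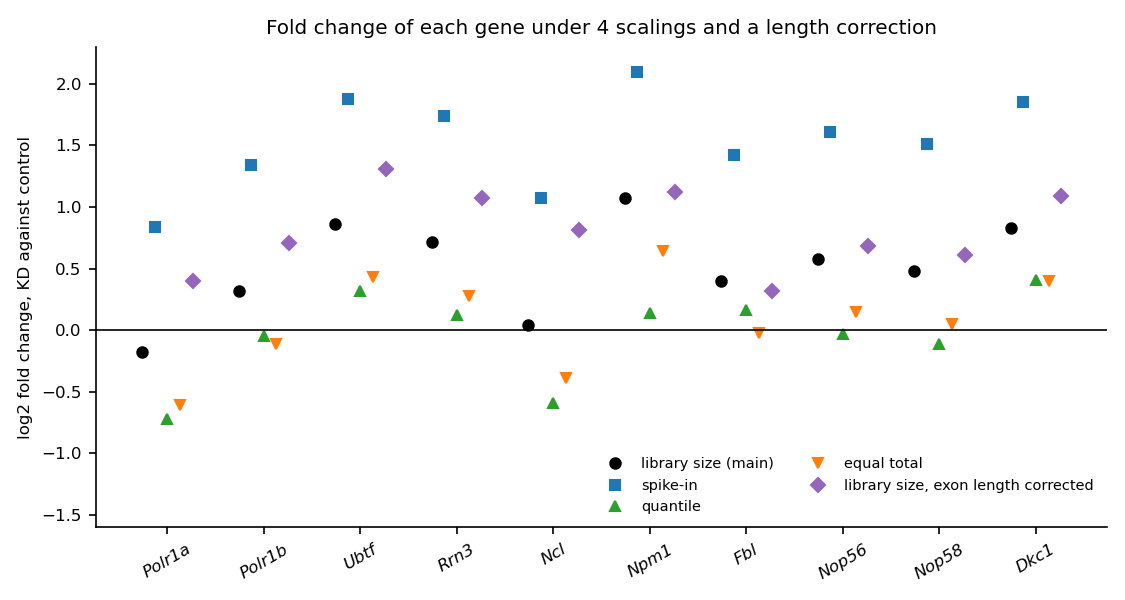
Log2 fold change of each gene, KD against control, under the library-size scaling (black), spike-in (blue), quantile (green), and equal total (orange) scalings, and after a correction for exon length (purple). *Ubtf*, *Rrn3*, *Npm1*, and *Dkc1* lie above 0 in all 5, and *Polr1a*, *Polr1b*, *Ncl*, *Fbl*, *Nop56*, and *Nop58* lie on both sides of it.

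Spike-in and equal total scaling apply 1 factor to all genes of a library. The spike-in scaling moved the median of all genes to 0.95, the equal total scaling to -0.45, and quantile scaling to 0.05. The median of the 10 genes was 1.56 with spike-ins and 0.10 with equal totals, above that of all genes in both, and 0.04 with quantile scaling, about that of all genes. In the spike-in scaling the KD libraries were more spread: *Polr1a* had values of 193.1, 402.0, 347.8, and 361.2 in KD and 149.1 to 226.7 in control, so that the groups overlapped. *Npm1* had 2066, 4019, 3628, and 3107 in KD and 602.1 to 937.7 in control in that scaling, and did not overlap. KD replicate 1 was the lowest KD library for all 10 genes there, and it was also the KD library with the fewest reads.

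A ratio of genes within a library does not depend on a factor applied to the whole library. Of 6 ratios between genes of like role, chosen after their values were seen, 3 separated the groups: *Polr1b* to *Polr1a* (KD minus control 0.51), *Npm1* to *Ncl* (1.03), and *Nop56* to *Fbl* (0.18). Each had an exact two-sided permutation p of 0.0286, the smallest that 4 against 4 libraries can give, and 0.0572 after Benjamini-Hochberg adjustment over the 6 ratios, so none passed 0.05. Quantile scaling, which is not 1 factor per library, turned *Nop56* to *Fbl* to -0.19 and *Nop58* to *Fbl* to -0.27, each with an exact permutation p of 0.0286. The ratios of *Rrn3* to *Ubtf*, *Nop58* to *Fbl* (0.08), and *Nop56* to *Nop58* (0.10) did not separate the groups, with exact permutation p of 0.0571, 0.2, and 0.1429. Such a ratio shows unequal change of a pair and not which gene of it changed. It also depends on exon length where the 2 genes differ in it. After the correction for exon length, *Npm1* and *Ncl* stood at 1.12 and 0.81, and *Polr1b* and *Polr1a* at 0.71 and 0.40. *Nop56* and *Fbl* moved further apart, to 0.68 and 0.32.

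Exon length went with the fold change, in all genes and in these 10. Of all genes divided into 5 classes by exon length, the median log2 fold change fell from 0.39 in the shortest class (up to 1433 bp) through 0.07, -0.03, and -0.15 to -0.37 in the longest (from 4551 bp). The share of genes that were higher at an adjusted p below 0.01 was 49.2% in the shortest class and 23.2% in the longest. *Ncl* (8257 bp of exons in the count file) and *Polr1a* (6109 bp), which did not rise, are the 2 longest of the 10, and *Ubtf* (4806 bp), which rose, falls in the same class. *Fbl* (1159 bp) is the shortest and its fold change was close to the median of its class. The other 9 genes lay above the median of their class. Across the 10 genes, which share the same libraries, Spearman's rho of length and fold change was -0.44, and across all genes it was -0.29. When a loess of fold change on log2 exon length was removed from each KD library, an alternative chosen after seeing the data, *Ncl* stood at 0.81 and *Polr1a* at 0.40, and all 10 genes were higher. Of all 15384 genes, 7034 were higher and 4381 lower in that fit at an adjusted p below 0.01 in limma. The median of all genes moved from -0.03 to 0.20. In that fit 4 of the 10 genes passed both thresholds: *Npm1* (1.12), *Ubtf* (1.31), *Dkc1* (1.09), and *Rrn3* (1.07). Of all genes, 1845 were higher past both thresholds there. The part of transcript length in the result was not otherwise tested.

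**Figure D3:**
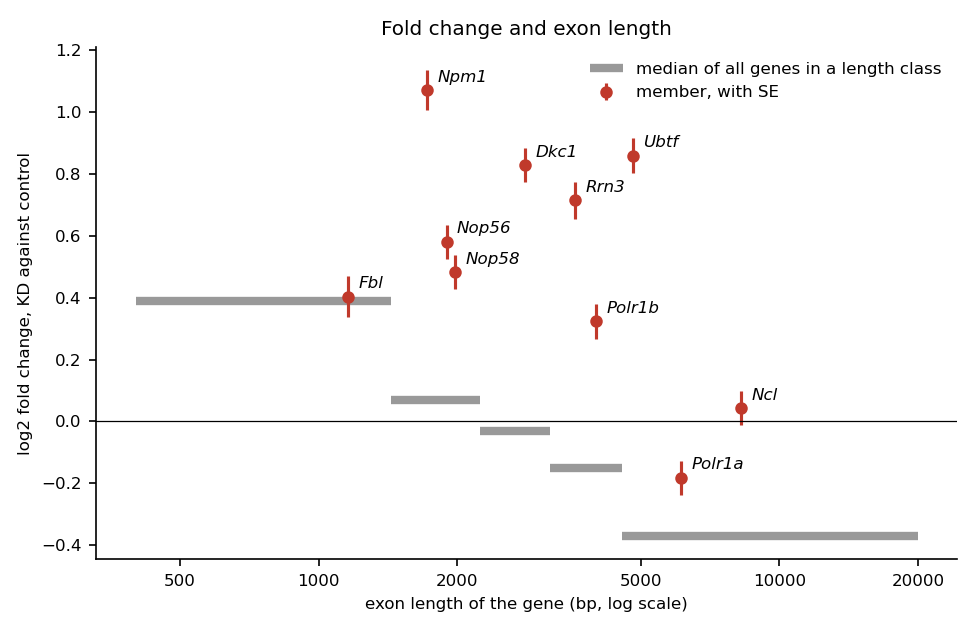
Log2 fold change (KD against control, library-size scaling) of the 10 genes with SE against exon length on a log axis, with the median of all genes in 5 length classes as grey bars (the outer bars are drawn from 400 bp and to 20000 bp). The class medians fall with length from 0.39 to -0.37, and all genes but *Fbl* lie clearly above the bar of their class.

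Per kilobase of exon, the control level was led by *Npm1* at 603 ± 12.1 (SD, n = 4), followed by *Nop56* at 159 ± 4.3 and *Nop58* at 133 ± 7.0. *Rrn3* came next at 65.5 ± 5.9, then *Ncl* at 46.5 ± 2.2 and *Polr1a* at 40.9 ± 0.6. *Fbl* (37.5 ± 1.7), *Dkc1* (37.2 ± 0.6), and *Ubtf* (35.9 ± 2.4) overlapped as neighbours in that order, and *Polr1b* was lowest at 26.4 ± 1.0. The libraries of all other neighbours in the order did not overlap. In percentiles of all genes, *Npm1* stood at 99.3 and *Polr1b* at 82.3. In KD the level of *Dkc1* (66.2 ± 2.3) and *Ubtf* (65.2 ± 2.3) passed that of *Ncl* (47.9 ± 1.4) and *Polr1a* (36.1 ± 2.2). *Ncl* went from percentile 91.2 to 86.4 and *Polr1a* from 89.7 to 82.5. These levels rest on the exon lengths of the count file.

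The rest of the pathway was counted from lists of Pol I subunits, initiation factors, nucleolar proteins, snoRNP proteins, the small subunit processome, and large subunit assembly. All 95 listed genes other than the 10 had values. At an adjusted p below 0.01, 82 were higher (86.3%), 2 were lower, and 11 did not pass. Of all genes 35.4% were higher and 37.3% lower. Of the 4644 genes with a control mean at least that of *Fbl*, 59.5% were higher and 21.4% lower. The median log2 fold change of the 95 was 0.51. Past both thresholds 11 of the 95 were higher, about the share of those 4644 genes (11.2%, and 8.07% of all genes). With quantile scaling 45 of the 95 were higher and 14 lower, where 5187 and 4486 of all 15384 genes were. With equal totals 40 were higher and 18 lower, where 2764 and 8692 of all genes were. The list medians given next stand beside a median of 0.33 over those 4644 genes and -0.03 over all genes. Those of the Pol I subunits (0.34), initiation factors (0.32), and Pol III subunits (0.36) were near that of the 4644 genes. Under quantile scaling the median of the box C/D proteins turned in sign (-0.04). Under equal totals those of the Pol I subunits (-0.09), the initiation factors (-0.10), and the Pol III subunits (-0.07) did. The list medians kept their sign otherwise.

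Among the 8 Pol I subunits 6 were higher and 1, *Polr1a*, was lower (median 0.34). *Polr1c*, a subunit shared with Pol III, went from 86.2 ± 8.0 to 198.5 ± 7.8 (SD, n = 4), a log2 fold change of 1.20. *Polr1d*, also shared, was at 0.72, and *Znrd1*, a small subunit, at 0.09 (adjusted p = 0.456). Of the 7 initiation factors 4 were higher and none lower (median 0.32), and *Taf1a*, *Taf1c*, and *Ttf1* did not pass, at -0.02, -0.18, and -0.08. *Taf1d*, a subunit of the promoter factor SL1, was at 0.45.

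Of the 4 box C/D proteins all were higher (median 0.47), and the fourth, *Nhp2l1*, which binds the snoRNA first, was at 0.47. Of the 6 box H/ACA proteins all were higher (median 0.57). *Nop10*, a small core subunit, went from 61.1 ± 2.6 to 161.9 ± 9.8, a log2 fold change of 1.40, and *Gar1* was at 0.68. Of the 7 nucleolar phosphoproteins and helicases 6 were higher (median 0.76), led by *Npm3*, a relative of *Npm1*, which went from 32.2 ± 2.8 to 97.7 ± 0.9, at 1.59. *Nolc1* was at 0.78 and the helicase *Ddx21* at 0.40.

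Of the 36 genes of the small subunit processome 32 were higher and none lower (median 0.58). *Pno1*, needed for late cleavage of the small subunit RNA, led at 1.61 (44.0 ± 4.4 to 134.7 ± 7.4), with *Tbl3* at 1.07 and *Rrp9* at 1.05. Of the 37 genes of large subunit assembly 32 were higher and 2 lower (median 0.52). *Ftsj3*, a methyltransferase of the precursor, was at 1.13, *Rsl24d1* at 1.11, and *Nip7* at 1.09, whereas *Brix1* was at -0.37 and *Nle1* at -0.30, and both of the latter were positive in the spike-in scaling.
Of 10 Pol III-specific subunits 8 were higher and 1 lower (median 0.36). *Polr3g*, a form known from stem cells, was at 1.07 and *Polr3c* at -0.67. Of 5 regulators around MYC 3 were higher and 1 lower: *Mxd3*, a repressor partner of MAX, was at 1.13 and *Mycn* at 0.99, *Mnt* was at -0.49, and *Myc* itself did not pass (-0.22, adjusted p = 0.144).

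**Figure D4:**
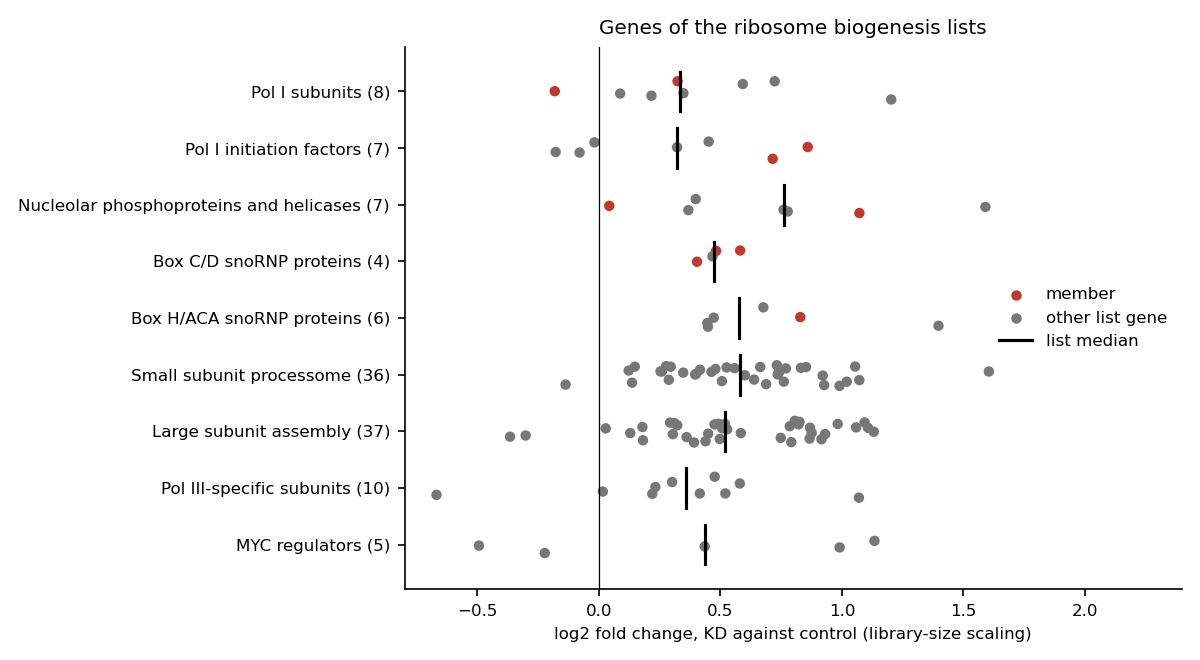
Log2 fold change (KD against control, library-size scaling) of each gene in 9 lists, with the 10 genes in red, other genes in grey, and the list median as a black line; numbers in brackets count the genes. All list medians lie above 0, between 0.32 and 0.76. Those of the Pol I subunits (0.34), initiation factors (0.32), and Pol III subunits (0.36) lie near 0.33. That is the median of the 4644 genes with a control mean at least that of *Fbl*. Quantile scaling turns the median of the box C/D proteins below 0, and equal totals those of the Pol I subunits, initiation factors, and Pol III subunits.

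The peak lists of SSRP1 and SUPT16 place FACT on part of the 10 genes in E14 cells. By the nearest-gene assignment, 7 of the 10 carried an SSRP1 peak, against 36.0% of all genes, and 5 carried a SUPT16 peak, against 18.6%. Among the 4644 genes with a control mean at least that of *Fbl*, the shares were 49.1% and 29.1%. Within 1000 bp of the TSS, the start of the gene model, 6 of the 10 had an SSRP1 peak (24.4% of all genes) and 4 a SUPT16 peak (14.4%). Among those 4644 genes the shares by this rule were 35.6% and 22.9%. Peaks carry no value per replicate, so no test was made.

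*Nop56*, *Ncl*, *Npm1*, and *Ubtf* carried peaks of both subunits. At *Nop56* (chromosome 2, 130274412 to 130279313, mm10, plus strand) there were 3 SSRP1 and 3 SUPT16 peaks over a short gene, and the SSRP1 peaks covered 6076 bp in all, more than the gene's own span, since the last ran past its end. The first ran from 130274242 to 130275908 and covered the TSS, and its SUPT16 counterpart from 130274060 to 130274830 did so too. At *Ncl* (chromosome 1, 86344719 to 86359455, minus strand) there were 4 peaks of each subunit, a number reached by 2.31% of all genes for SSRP1 and by 0.384% for SUPT16. The TSS lay under an SSRP1 peak from 86358580 to 86360246 and a SUPT16 peak from 86358720 to 86359490. A further pair lay past the end of the gene, of which the SSRP1 peak (86341332 to 86344272) was 2940 bp long.

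At *Npm1* (chromosome 11, 33152498 to 33163206, minus strand) peaks of both subunits lay just inside the gene, SSRP1 from 33162024 to 33163102 and SUPT16 from 33161940 to 33162990, and both overlapped exon sequence. A second SSRP1 peak of 4312 bp lay beyond its end, and a short SUPT16 peak lay in the gene body. *Ubtf* (chromosome 11, 102304560 to 102319096, minus strand) carried 8 SSRP1 peaks, a number reached by 0.41% of all genes, of which 3 lay upstream. Its SUPT16 peaks were 2, and one of 1120 bp (102317390 to 102318510) overlapped an SSRP1 peak in an intron of the gene model. Both of these peaks covered all 300 bases of a RefSeq start window of *Ubtf* (102317822 to 102318121).

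*Nop58* and *Fbl* carried only SSRP1 peaks in these lists. The first peak of *Nop58* (chromosome 1, 59684940 to 59685920) covered the TSS, and that of *Fbl* (chromosome 7, 28169806 to 28170296) began 58 bp inside the gene. *Rrn3* carried 2 SSRP1 peaks, 1 in an intron and 1 upstream of the gene, centred at -15864 bp from the TSS, so none at the TSS itself. *Polr1a* carried a single SUPT16 peak of 210 bp in an intron, 42 kb into the gene. *Polr1b* (chromosome 2, 129100996 to 129126595) and *Dkc1* (chromosome X, 75095854 to 75109776) carried none of either. The log2 fold changes of the 4 genes without an SSRP1 peak within 1000 bp of the TSS were 0.83 for *Dkc1*, 0.72 for *Rrn3*, 0.32 for *Polr1b*, and -0.18 for *Polr1a*. Those of the 6 genes with one were 1.07 for *Npm1*, 0.86 for *Ubtf*, 0.58 for *Nop56*, 0.48 for *Nop58*, 0.40 for *Fbl*, and 0.04 for *Ncl*, so the ranges overlapped.

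**Figure D5:**
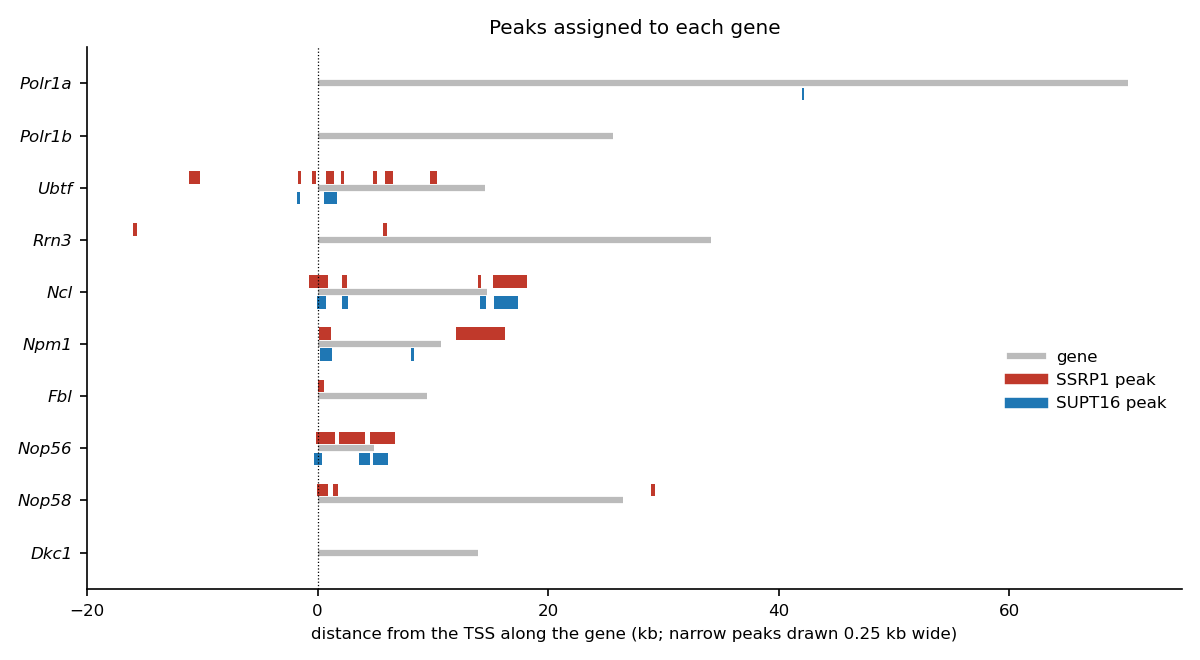
Peaks assigned to each gene by the authors, by distance from the TSS in kb along the gene (dotted line at 0), with the gene in grey, SSRP1 peaks in red above it and SUPT16 peaks in blue below it. *Ncl*, *Npm1*, and *Nop56* have peaks of both subunits at or just inside the start, and *Polr1b* and *Dkc1* have no peak.

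Chromatin RNA was counted in 2 libraries of 3441643 and 3393923 reads, of which 63.8% (95% Wilson interval 63.8 to 63.9) and 60.7% (60.7 to 60.8) fell on snoRNA genes, so the 10 genes shared 940 and 1492 reads. The intervals cover counting error only. The highest of the 10 were *Ncl* with 339 and 441 reads and *Npm1* with 214 and 278. *Nop58* had 106 and 188, *Nop56* 79 and 164, *Polr1a* 50 and 109, and *Ubtf* 50 and 92. *Rrn3* had 42 and 76, *Dkc1* 38 and 89, and *Polr1b* 18 and 52. *Fbl* had 4 and 3, too few to place it. Per kilobase, as percentiles among genes with a read, *Npm1* stood at 98.7 and 98.8, *Nop58* at 98.1 and 98.5, and *Ncl* at 97.6 and 97.7, whereas *Polr1b* stood at 73.6 and 86.5 and *Fbl* at 66.3 and 45.8. Between the libraries, 9 genes had more reads in the second and *Fbl* did not.

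Some of these genes also carry snoRNA genes in their introns, the guide RNAs of the particles that *Fbl*, *Nop56*, *Nop58*, and *Dkc1* build. The count file lists 6 such genes, in *Ncl*, *Nop56*, and *Nop58*. RefSeq also places snoRNA genes that have no counts here in *Nop56* (*LOC115489609*, *LOC115489632*, and *LOC115489601*), *Nop58* (*LOC115485825* and *Gm26287*), and *Dkc1* (*Gm25520*). The 6 listed genes are shown because they outnumbered their hosts by far in chromatin RNA. The 5 box C/D snoRNAs among the 6 read as follows (DNA, 5′ to 3′, from GRCm38), with the CTGA of box D near the 3′ end in capitals.
Snord82: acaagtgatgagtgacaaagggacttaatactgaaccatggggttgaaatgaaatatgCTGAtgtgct
Snord110: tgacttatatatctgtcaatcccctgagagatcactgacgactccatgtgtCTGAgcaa
Snord57: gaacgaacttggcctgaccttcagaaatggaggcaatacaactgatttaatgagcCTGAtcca
Snord70: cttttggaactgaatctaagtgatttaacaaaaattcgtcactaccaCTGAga
Snord11: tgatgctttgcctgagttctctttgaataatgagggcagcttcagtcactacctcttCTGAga

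*Snord82* (chr1:86356260-86356327, minus strand) in *Ncl* had 155557 and 112392 reads in chromatin RNA, against 339 and 441 for the exons of its host. *Snora75* (chr1:86351170-86351285, minus strand), the box H/ACA snoRNA of *Ncl*, had 2311 and 2223. In *Nop56*, *Snord110* (chr2:130275515-130275573, plus strand) had 25291 and 18296 reads and *Snord57* (chr2:130278026-130278088, plus strand) 21114 and 18652. In *Nop58*, *Snord70* (chr1:59691958-59692010, plus strand) had 2185 and 2198 and *Snord11* (chr1:59704808-59704870, plus strand) 1513 and 1442. The 2 counted snoRNAs of *Nop56* were thus of similar abundance, and the 2 counted in *Nop58* were far lower in both libraries. *Snord110* and *Snord57* each lay wholly under an SSRP1 peak of *Nop56*, and *Snord57* under a SUPT16 peak too. Of the 123 snoRNA genes listed, 26.0% lay wholly under an SSRP1 peak and 17.9% under a SUPT16 peak.

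In the RNA-seq of KD and control cells, *Snord110* and *Snord70* had values and the other 4 of the counted snoRNA genes had none. *Snord110* rested on 8 to 10 reads per control library and 9 to 26 per KD library, and its value was 1.40 ± 0.16 (SD, n = 4) in control and 1.37 ± 0.24 (SD, n = 4) in KD. *Snord70* rested on 5 to 29 and 27 to 47 reads and was 2.16 ± 1.40 and 2.51 ± 0.67. Neither difference passed (adjusted p = 0.937 and 0.364), and the few reads make these values imprecise.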

How the data were processed

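RNA-seq of control and KD mESCs, chromatin RNA, and FACT peak lists were used. The authors aligned RNA-seq reads to mm10 with STAR 2.5.1b and scaled gene counts with edgeR, and deposited each signal scaled to library size and to spike-ins. Strand use in counting and the handling of multi-mapped reads are not given in the sources used here. The deposited chromatin counts are raw (STAR 2.4.1b, featureCounts), and the authors' peak caller was PePr, run on Bowtie2 2.2.6 alignments with replicates together. The deposited tables of KD against control, NPC against mESC, and exon usage hold the authors' fold changes and p-values and were not used; MNase-seq, ATAC-seq, NET-seq, and NPC libraries were not analysed here.

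Values of 15384 genes, all above 1 in at least 4 libraries, went into limma 3.58.1 as log2(value + 0.5), with a mean-variance trend and Benjamini-Hochberg adjustment; log2 fold changes are on that scale. Calls needed an adjusted p below 0.01, with or without an absolute log2 fold change above 1. Reads were recovered as whole multiples (100% within 0.1) for edgeR 4.0.16 and DESeq2 1.42.0. Alternatives were other pseudocounts (0.1, 2), a filter on means of at least 5, TMM, size factor, spike-in, quantile, and equal total scaling, no trend, a replicate block, a loess on exon length, and each library left out; equal totals and the loess were chosen after seeing the data. The labels call the libraries replicates and the methods biological replicates. The fits were tested on simulated data. Sequences came from RefSeq, GRCm38.p6. R 4.3.3 and Python 3.11.15 were used.

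The members and lists were chosen with earlier results of these data known. Named were the 10 members, *Ssrp1*, *Supt16*, and, per list, the largest rise and fall among genes with an adjusted p below 0.01 and separate groups, with the next 2 each way in the 2 largest lists; *Polr1d*, *Znrd1*, *Taf1a*, *Taf1c*, *Taf1d*, *Ttf1*, *Nhp2l1*, *Gar1*, *Nolc1*, *Ddx21*, *Myc*, *Mycn*, *Tubb3*, and the snoRNA genes were named after their values were seen.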

Additional observations from a re-analysis of the deposited data

Results flagged for a closer look

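The highest KD library of *Ubtf*, at a library-size value of 329.7, stood apart from the other 3 KD libraries, which lay between 306.7 and 310.3. The gap was large against the range of the group by Dixon's criterion at the 95% level. Of the 20 groups of libraries tested this was 1, and chance alone flags about 1 in 20.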

How the results depend on the processing

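The number of the 10 genes higher past both thresholds (1) was 9 with spike-in scaling, 0 with quantile scaling, 0 with equal totals, and 4 with the exon length correction. At an adjusted p below 0.01 alone, the 8 higher genes became 3 with quantile scaling and 5 with equal totals. The 1 lower gene became 0 with size factors, spike-ins, no trend, or the exon length correction, 3 with quantile scaling, and 2 with equal totals. Of all 15384 genes, 5187 were higher and 4486 lower at that threshold with quantile scaling. With equal totals 2764 and 8692 of all genes were, and with the exon length correction 7034 and 4381. Leaving out 1 library gave 1 to 1 gene past both thresholds, 8 to 8 higher, and 0 to 1 lower, the last being *Polr1a*. Of the 95 other pathway genes, the 11 past both thresholds became 89 with spike-ins, 3 with quantile scaling, 2 with equal totals, and 30 with the length correction. The 82 higher became 45 and 40 with quantile and equal total scaling, and the 2 lower became 0 with spike-ins and with the length correction, 14 with quantile scaling, and 18 with equal totals. Without 1 library these were 10 to 14, 80 to 84, and 1 to 3, the last being 1 without KD replicate 1 or KD replicate 2. The cause of these shifts was not tested, beyond the scaling itself.

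Reversed log2 fold changes were, with spike-ins, *Polr1a* 0.84, *Brix1* 0.65, *Nle1* 0.70, *Polr3c* 0.33, and *Mnt* 0.50. With quantile scaling they were *Polr1b* -0.05, *Ncl* -0.59, *Nop56* -0.03, and *Nop58* -0.11, and with equal totals *Polr1b* -0.11, *Ncl* -0.39, and *Fbl* -0.02. The length correction turned *Polr1a* to 0.40. Quantile scaling, which is not a single factor per library, also turned the log2 ratios of *Nop56* to *Fbl* (-0.19) and *Nop58* to *Fbl* (-0.27). The median chromatin RNA percentile of the 10 genes (93.1) was 95.5 without length and 96.1 among all listed genes.

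Replicate numbers did not pair the libraries: correlations of same-numbered deviations were 0.0175, -0.0154, -0.057, and -0.0224. The replicate block left 1242 genes higher and 3163 lower past both thresholds, as without it, and among the 10 genes 1 past both thresholds, 8 higher, and 1 lower. For all genes, where the main counts were 1242 and 3163, spike-ins gave 7394 and 1082, quantile scaling 1518 and 1656, and equal totals 343 and 4696. The exon length correction gave 1845 and 2517. On the recovered whole reads edgeR called 1268 and 3443 and DESeq2 1398 and 3364, and both kept the direction of all 10 genes. Control depth limits *Fbl*, with 247 to 331 reads, and the snoRNAs most.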
